A study of Mus musculus with 9 samples.

Results

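The untreated leukemia cells of a mouse model of acute promyelocytic leukemia (APL) are described here from their own 3 libraries, which were chosen as the samples labelled as controls, 3 of the 9 samples in the series. The controls are GFP+ APL cells sorted from the bone marrow of FVB N/J mice with overt leukemia. The leukemia came from hMRP8-PML/RARα transgenic mice, in which regulatory sequence of the human MRP8 gene drives the fusion gene in myeloid cells, and the cells carried GFP from the retroviral vector MigR1 and were passed through syngeneic recipients. The drug-treated samples of the series received all-trans retinoic acid (ATRA, 10 mg/kg) or arsenic trioxide (ATO, 4 mg/kg) daily for 6 days and were not used here. Controls received neither drug, and whether they received the solvent is not stated in the sources used here. The series calls the libraries biological replicates, but no label ties a library to a mouse or to a primary leukemia, so the spread given below may include technical variation. The human transgene and GFP were not analysed here, so neither the sort nor the fusion gene was checked by expression. No normal progenitor or neutrophil library was analysed here, and every level is therefore given against other genes of the same cells and not against normal marrow.

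APL is a leukemia in which the fusion of PML to the retinoic acid receptor RARα holds myeloid cells at about the promyelocyte stage. In normal granulopoiesis the azurophil (primary) granule proteins, such as myeloperoxidase and neutrophil elastase, are made in promyelocytes, the specific (secondary) granule proteins, such as lactoferrin, in myelocytes, and gelatinase and the chemokine receptor CXCR2 later still. The transcription factors PU.1 and C/EBPα are needed early in this sequence, and C/EBPε and GFI1 for the granulocytic steps that follow.

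PolyA RNA had been sequenced to 17529630, 15822998 and 17026453 reads assigned to genes in controls 1, 2 and 3. Values are normalized read counts, which are reads per gene divided by 1 size factor for each library, and they rise with transcript length. Genes are ranked by mean normalized read count, and levels of different genes are otherwise given after division by the length of their exons in kilobases. Of 24364 genes, 14074 had a read in every control and 7739 had none in any. A mean of at least 100 normalized read counts, the minimum used for every statement on spread, was reached by 9326 (38.3%). Control 2 stood apart from the others: across those genes the log2 values had a Pearson correlation of 0.921 between controls 1 and 2, 0.952 between controls 2 and 3, and 0.975 between controls 1 and 3. These are correlations across genes, which share libraries and are not independent. Deviations of a gene from its mean also moved with exon length, by -0.12, 0.11 and 0.006 on the log2 scale for each doubling of length in controls 1, 2 and 3, so short genes were relatively high in control 1 and long genes in control 2. Values without control 2, or with this trend and a trend with GC content removed, are therefore given for several counts and list medians. Values of single genes were not corrected for length. With 1 group there is no contrast to test, and all results are descriptions with n = 3.

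The genes that took the most reads were those of myeloid granules and the translation machinery. The 20 most expressed genes of each library took 13.5%, 13.6% and 13.1% of its reads in controls 1, 2 and 3, and the 100 most expressed took 26.9%, 25.7% and 25.2%. Chil3, a chitinase-like lectin (Ym1) secreted by neutrophils and macrophages, had the highest mean, 426271, 563499 and 520879 normalized read counts in controls 1, 2 and 3, and ranked first in every library. It alone took 2.56% of the reads of control 1 (exact 95% binomial interval 2.55 to 2.57), 3.58% of control 2 (3.57 to 3.59) and 3.48% of control 3 (3.47 to 3.49). Intervals cover counting error only, since PCR copies of a molecule were not marked. Its near-identical paralog Chil4 could have cost or given it reads, because the authors kept only uniquely mapped reads.

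Mpo, encoding myeloperoxidase, was second by mean but varied most among the top genes: it had 256938, 48810.5 and 148594 normalized read counts in controls 1, 2 and 3 and held rank 2, 19 and 2. S100a8, a subunit of the calcium-binding complex calprotectin, went the other way, with 100486, 208211 and 94737 normalized read counts and rank 8, 2 and 6. Control 2 thus had the lowest value of Mpo and the highest of S100a8, and neither value lay within the range of the other controls. Lyz2 (lysozyme) had 92373, 135284 and 102579 normalized read counts in the 3 controls. Elane (neutrophil elastase) had 130826, 53702 and 88401, and Ctsg (cathepsin G) had 91955, 47899 and 76941. Both serine proteases were lowest in control 2 and highest in control 1, as Mpo was. S100a9, the partner of S100a8, had 50684, 139649.8 and 52142 normalized read counts and was highest in control 2.

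Ly6c2, a surface antigen of monocytes and immature granulocytes, averaged 89942 ± 14961 normalized read counts (SD, n = 3). Hp (haptoglobin) averaged 46278 ± 7099. Thbs4, a matrix glycoprotein of the thrombospondin family, was among these 20 genes with 63013, 49505 and 55574 normalized read counts in controls 1, 2 and 3. It differed little between the libraries, with a log2 SD of 0.17. The other members of the top 20 were the elongation factors Eef1a1 and Eef2, the cytoskeletal gene Actb, the ferritin light chain Ftl1, the lysosomal sphingolipid activator Psap, the glycolytic genes Pkm and Gapdh, the ribosomal genes Rpsa and Rplp0, and the chaperone Calr. Among these, Eef1a1 was the steadiest, with 116081, 120326 and 123921 normalized read counts and a log2 SD of 0.047, and Psap the least steady, with 88258, 33817 and 70306 and a log2 SD of 0.72. Eef1a1, Rpsa, Gapdh, Actb and Ftl1 have many processed copies in the mouse genome, so their counts are uncertain.

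**Figure D1:**
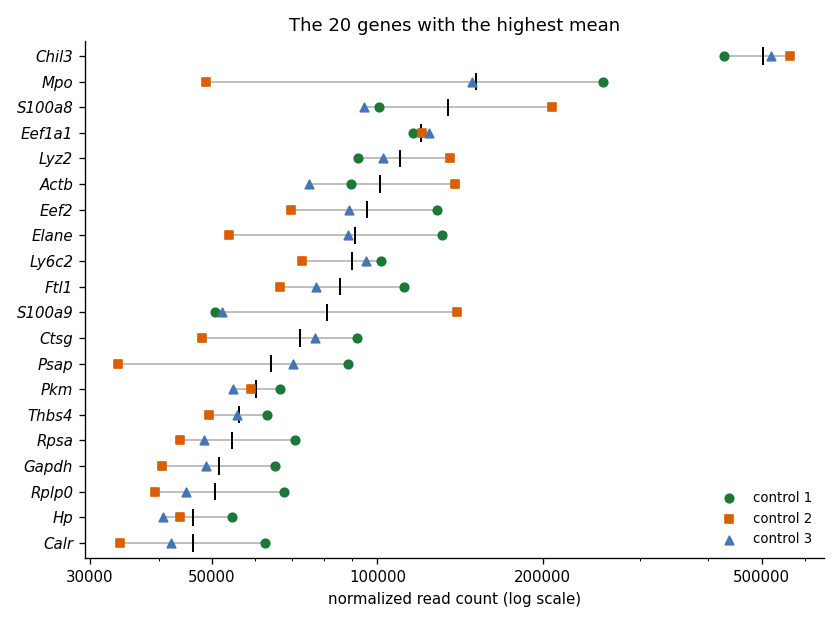
The 20 genes with the highest mean normalized read count. Each marker is 1 control on a log axis, the black tick is the mean and the grey line joins the lowest and highest control. Control 2 is the lowest for Mpo (48810), Elane (53702) and Psap (33817) and the highest for S100a8 (208211) and S100a9 (139650), while Eef1a1 lies between 116081 and 123921 in all 3.

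Per kilobase of exons the order changed in favour of short transcripts. S100a8 came first with 343056 normalized read counts per kilobase, followed by Chil3 with 296206 and S100a9 with 154837. Ly6c2 had 112992, Elane 98887, Lyz2 83838, Ctsg 72121, Ftl1 63698, the ribosomal gene Rplp1 54466 and Eef1a1 48179 normalized read counts per kilobase. Genes of the azurophil granule, specific granule and late neutrophil lists, with the antigen gene Ly6c2, held 7 of these 10 places. The median over all genes with a usable length was 9.02 per kilobase, and over the 9326 genes with a mean of at least 100 it was 179.

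All 12 azurophil granule genes of the list were expressed at a mean of at least 100 normalized read counts, and their median level was 6050 per kilobase. Elane and Ctsg led, Mpo had 44231 normalized read counts per kilobase, and Prtn3 (proteinase 3) had 14076. Ms4a3, a membrane protein of granulocyte and monocyte progenitors, averaged 13430.1 ± 2374 normalized read counts. The lowest member per kilobase was Ctsc, the cathepsin that activates these proteases, with 186. The promyelocyte granule genes were thus present in every library.

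The specific granule genes were also all expressed, 18 of 18 at a mean of at least 100, but over a wider range of levels and with far more spread. Their median was 4300 per kilobase over the 3 controls and 1755 without control 2. Chil3, Lyz2 and Hp, which led the list, are also made by macrophages or earlier myeloid cells. Ltf, encoding lactoferrin and the defining gene of these granules, had 2052, 23681 and 2281 normalized read counts in controls 1, 2 and 3, and its rank among all genes was 1645, 50 and 1300. Ngp (neutrophilic granule protein) had 15247, 90305 and 18722 normalized read counts. Camp (cathelicidin) had 9966, 33494 and 9210.3, and Lcn2 (lipocalin 2) had 11146, 32112 and 10209. In each of these genes control 2 was far above the others, which lay close together. Olfm4, a glycoprotein of a subset of specific granules, had 2426, 32834 and 4789.9 normalized read counts, so that control 3 also lay above control 1 there. Mmp8, the neutrophil collagenase, was low in all 3 libraries with 49.4, 203 and 73 normalized read counts. Mmp8 and Itgb2l, which is given below, reached a mean of 100 only through control 2. Cd177, a neutrophil surface glycoprotein, had 31437, 54548 and 25349, and Wfdc21, an antimicrobial whey acidic protein, had 3027, 4192 and 2847. Both were also highest in control 2, by less than 2-fold.

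Ratios within a library do not depend on scaling and show the same split. For each read of Ltf there were 125, 2.06 and 65.1 reads of Mpo in controls 1, 2 and 3, and for each read of Ngp there were 8.58, 0.595 and 4.72 reads of Elane. The S100a8 to S100a9 ratio differed much less, at 1.98, 1.49 and 1.82 reads.

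Genes of later neutrophils were present at lower levels, with a median of 716 per kilobase (464 without control 2) for 25 genes, of which 21 reached a mean of 100. S100a8 and S100a9 stood far above the rest of the list, and Alox5ap, an activating protein of leukotriene synthesis, came next at 9121 per kilobase. Retnlg, a resistin-like neutrophil protein, had 1549.8, 11572 and 1886 normalized read counts in controls 1, 2 and 3. Cxcr2, the chemokine receptor of mature neutrophils, had 182, 1258 and 226, and Mmp9 (gelatinase B) had 200.5, 1608 and 229.6. Padi4, which citrullinates histones, had 369, 1929.8 and 309.6 normalized read counts, and the same 1 library was high in all 4 of these genes. Il1b was nearly absent in the 3 libraries, with 0.95, 7.95 and 6.16 normalized read counts, and Stfa1 had 0.95, 6.96 and 2.64. Ly6g, the other antigen seen by the Gr-1 antibody, was not analysed here.

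**Figure D2:**
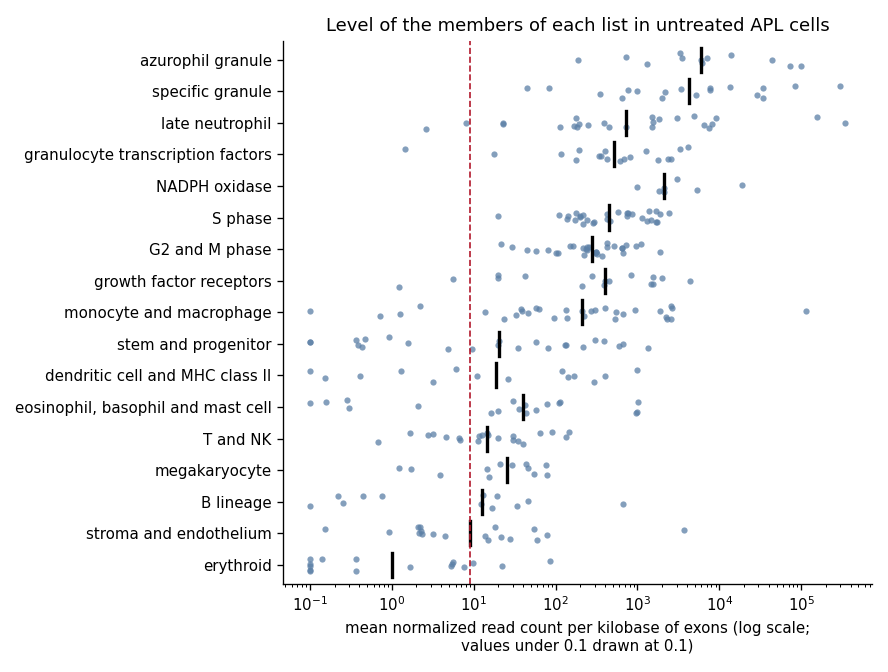
Mean normalized read count per kilobase of exons of every member of 17 gene lists in the untreated APL cells, on a log axis. Each point is a gene, the black bar is the median of the list and the dashed red line is the median of all genes, 9.02. The azurophil (6050) and specific granule (4300) lists lie highest, the stem and progenitor list has a median of 20.4 with members from near 0 to 1329, and the erythroid list is lowest at 1.01.

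Promoter sequence was read for 2 azurophil and 2 specific granule genes, because these genes moved in opposite directions in control 2. They had the largest spread of their list among genes with only 1 annotated promoter window. The 250 bases before the annotated start are printed 5′ to 3′ on the plus strand, from RefSeq on GRCm38.p6. These coordinates are of a later build than the mm9 of the read counts. Capitals mark matches, on either strand, to 3 words: TTNNGCAA for C/EBP proteins, GAGGAAGT for PU.1 and TAACNG for MYB. The windows are chr11:87793534-87793783 for Mpo, chr10:79886062-79886311 for Elane, chr9:111019042-111019291 for Ltf and chr14:80000052-80000301 for Olfm4.
Mpo: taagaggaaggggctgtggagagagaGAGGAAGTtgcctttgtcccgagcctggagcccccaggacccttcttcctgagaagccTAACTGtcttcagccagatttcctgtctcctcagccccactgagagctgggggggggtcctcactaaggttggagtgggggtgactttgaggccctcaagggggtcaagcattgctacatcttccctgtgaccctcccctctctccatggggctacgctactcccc
Elane: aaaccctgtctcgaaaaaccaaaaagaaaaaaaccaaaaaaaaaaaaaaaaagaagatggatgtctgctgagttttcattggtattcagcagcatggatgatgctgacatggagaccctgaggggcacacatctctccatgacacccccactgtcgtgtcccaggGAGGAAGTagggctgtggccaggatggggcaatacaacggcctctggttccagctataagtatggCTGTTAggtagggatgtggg
Ltf: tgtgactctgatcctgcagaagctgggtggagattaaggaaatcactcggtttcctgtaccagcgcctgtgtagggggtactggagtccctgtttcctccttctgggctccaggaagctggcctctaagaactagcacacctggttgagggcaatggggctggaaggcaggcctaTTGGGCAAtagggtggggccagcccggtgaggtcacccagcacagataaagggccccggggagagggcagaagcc
Olfm4: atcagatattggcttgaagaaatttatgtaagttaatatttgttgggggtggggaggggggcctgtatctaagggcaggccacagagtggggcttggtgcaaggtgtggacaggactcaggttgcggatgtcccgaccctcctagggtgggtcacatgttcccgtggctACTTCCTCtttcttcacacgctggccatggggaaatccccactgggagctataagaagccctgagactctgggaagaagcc
Mpo and Elane each held 1 PU.1 word, starting 224 and 85 bases before the start, and 1 MYB word, starting 166 and 20 bases before it. Ltf held 1 C/EBP word that started 75 bases before the start, and Olfm4 held 1 PU.1 word on the opposite strand. In windows of 300 bases, from 250 before to 50 after a start, the PU.1 word was found for 4 of the 10 azurophil genes with a window (Ctsc, Elane, Mpo and Prtn3), 3 of 15 specific granule genes and 1 of 20 late neutrophil genes, against 3.69% of 27025 genes. The C/EBP word was found for 2 of 10, 7 of 15 and 3 of 20 genes of these lists, against 12.2% of all genes, and the MYB word for 2 of 10, 3 of 15 and 3 of 20, against 25.9%. The words do not overlap one another. A match describes sequence only, and factor binding was not measured.

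The list of granulocyte transcription factors was well expressed, with 17 of 18 genes at a mean of at least 100. It also holds Per3, a circadian clock gene and not a factor of granulopoiesis. Spi1, encoding PU.1, was the highest per kilobase, at 4198 normalized read counts, with 13547, 10203 and 10189 normalized read counts in controls 1, 2 and 3. Cebpa (C/EBPα) had 11779.9, 6219.9 and 8169.7. Cebpe (C/EBPε), the factor required for specific granules, had 2241, 3067 and 1243. Spi1 had a smaller spread than both, Cebpa was highest in control 1, and Cebpe was highest in control 2 and lowest in control 3. The number of Cebpa reads for each Cebpe read was 5.26, 2.03 and 6.57. Gfi1, a repressor that favours the granulocyte over the monocyte fate, had 4377, 4396 and 3548 normalized read counts and a log2 SD of 0.18. Cebpd and Cebpb, which act in later and in emergency granulopoiesis, had 2544 and 2347 normalized read counts per kilobase. Among the other members, Cbfb, the partner of RUNX1, had 813 per kilobase, Runx1 343, Etv6 424, Stat3 400.4, Stat5b 362, Stat5a 191, Klf5 176, Cebpg 118 and Per3 17.7. Klf5, a Krüppel-like factor, had 183, 548 and 179 normalized read counts and was the only member over 2-fold above both other controls in 1 library, control 2, as were 2.18% of all genes with a mean of at least 100. Lef1, a factor of Wnt signalling that acts with C/EBPα in human granulopoiesis, averaged 12.4 ± 3.19 normalized read counts and was the only one below 100.

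Of 16 regulators that the study follows, 9 had a mean of at least 100 normalized read counts, 5 lay between 10 and 100 and 2 under 10, where 38.3% of all genes reached 100. Irf8, the factor that drives monocyte and dendritic cell fates, had 1396, 1053 and 1132 normalized read counts in controls 1, 2 and 3, or 169 per kilobase, which is below Spi1, Cebpa and Gfi1 and near the median of the genes with a mean of at least 100. Klf4, another monocytic factor, had 444, 539.9 and 482. Both were steady, with a log2 SD of 0.21 and 0.14. Ikzf1, which encodes the lymphoid and myeloid regulator Ikaros, was the highest of the 16 at 683 per kilobase, followed by Myb, a progenitor factor, at 668 and the LIM-domain cofactor Ldb1 at 606. Tal1 had 131, the endosomal RNA sensor Tlr7 88.2, Gata2 57.8 and Irf7 55 normalized read counts per kilobase.

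The lower members of that group included the myeloid and lymphoid factor Mef2c, with 54.2, 67.6 and 98.5 normalized read counts in controls 1, 2 and 3, and the membrane protease gene Mmp14, with 77, 62.6 and 85.3. Gata1, the erythroid and megakaryocyte factor, had 15.2, 29.8 and 10.6, and Sox4 had 21.9, 32.8 and 15. Bmyc averaged 11.3 ± 4.32 normalized read counts and Aff3 9.43 ± 1.31. Meis1, the HOX cofactor of stem cells, had 3.8, 4.97 and 0.88, which is at or near the level of 3 reads, 2.64 to 2.98 normalized read counts. Whether these levels are low for this stage cannot be read from 3 leukemia libraries alone.

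**Figure D3:**
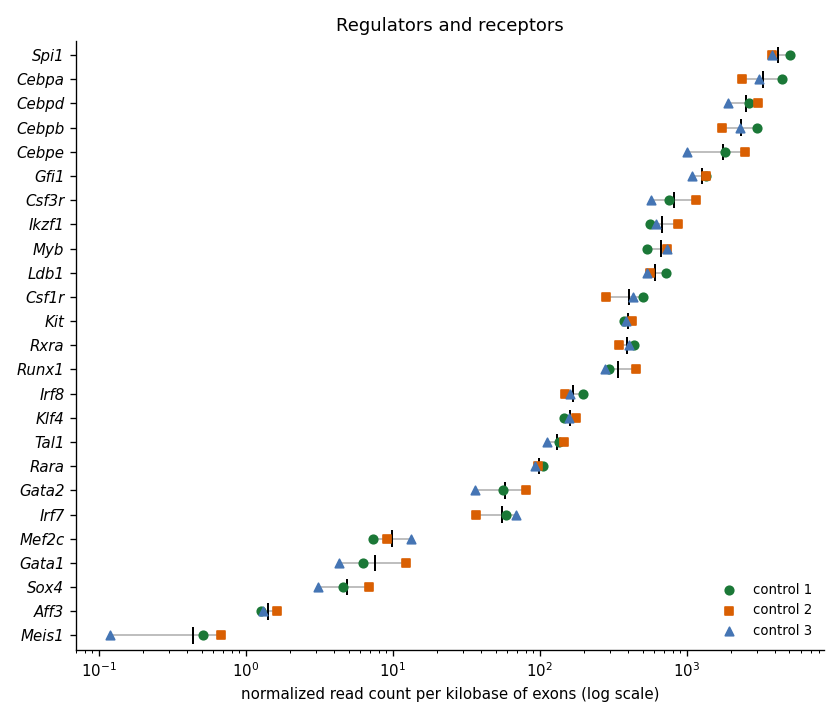
Normalized read counts per kilobase of exons, on a log axis, for 25 transcription factors and receptors in the 3 controls, in the order of their means (black ticks). Spi1 (4198) and Cebpa (3312) are highest, Irf8 (169) and Klf4 (160) lie together in the middle, and Meis1 (0.435) is lowest.

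Progenitor genes ranged from well expressed to undetected. Of 23 stem and progenitor genes, 11 (47.8%) had a mean of at least 100, against 38.3% of all genes, and 8 were under 10. Kit, the stem cell factor receptor by which the leukemic progenitors are sorted, had 2179, 2477 and 2268 normalized read counts in controls 1, 2 and 3, with a log2 SD of 0.095. Cd93, the AA4.1 antigen, had 4236, 3082 and 4621, and the haematopoietic factor gene Lmo2 was the highest of the list per kilobase at 1329. Prom1 had 305 and Erg 219 normalized read counts per kilobase. Cd34 averaged 25.2 ± 4.46 normalized read counts and Ly6a, which encodes the Sca-1 antigen, 65.5 ± 5.8. Flt3 had 145, 26.8 and 194 normalized read counts and was low in control 2. Hoxa9 had 0.95, 6.96 and 1.76, Mecom 0, 0 and 1.76 and Hlf 0, 3.98 and 3.52, and Hoxa10 had no read in any control, which allows up to 3 reads, or 2.64 to 2.98 normalized read counts, in a library.

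Genes of antigens that are stained to sort, stage or describe myeloid cells were led by Ly6c2. These libraries themselves were sorted by GFP. Itgam, the CD11b antigen of maturing myeloid cells, had 6645, 13488 and 7598 normalized read counts in controls 1, 2 and 3, and the number of Itgam reads for each Kit read was 3.05, 5.45 and 3.35. Ptprc, encoding CD45, had 765, 2669 and 1214 and was over 2-fold higher in control 2 than in both others. Fcgr3 and Fcgr2b, the immunoglobulin receptors CD16 and CD32, had 1988 and 782 normalized read counts per kilobase. Adgre1, encoding the macrophage antigen F4/80, averaged 692 ± 41.4 normalized read counts, Itgax (CD11c) 490.4 ± 120.3, and Ly6c1, a near copy of Ly6c2, 47.7 ± 18.3. Mki67, the proliferation antigen Ki67, had 1347, 3525 and 1729 and was again highest in control 2.

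Among growth factor receptors 14 of 16 had a mean of at least 100. Csf2ra, the alpha chain of the GM-CSF receptor, was the highest per kilobase at 4389.9, and steady with 8202, 8299 and 7849 normalized read counts in controls 1, 2 and 3. Ifngr1, a chain of the interferon gamma receptor, had 5892, 2989 and 7984. Csf2rb, the shared beta chain, had 1544 normalized read counts per kilobase and Tnfrsf1a 1537. Csf3r, the granulocyte colony-stimulating factor receptor, had 3127, 4754 and 2358, and Csf1r, the macrophage counterpart, had 2619, 1472 and 2263. The number of Csf3r reads for each Csf1r read was 1.19, 3.23 and 1.04, so the granulocyte receptor was relatively higher in control 2. Epor, the erythropoietin receptor, averaged 10.2 ± 5.35 normalized read counts.

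In the list of retinoid receptors, PML and its partners, and enzymes and carriers of retinoids, 15 of 22 genes had a mean of at least 100. Rxrb and Rxra were the leading receptors, with 713 and 395 normalized read counts per kilobase, and Rara, to which reads of the human fusion transgene may also map, had 479, 443 and 426 normalized read counts in controls 1, 2 and 3, or 98.3 per kilobase. Rarg had 85.5 per kilobase. Rarb, itself a retinoid target, averaged 3.83 ± 2.73 normalized read counts, and Rxrg had no read. Pml had 1301, 945 and 951, and Rnf4, the ubiquitin ligase that acts on SUMO-modified PML, had 1728, 1851 and 2056. The co-repressor gene Ncor1 had 2389, 5225 and 3096 normalized read counts and was highest in control 2. Of the enzymes and carriers of retinoids, Dhrs3 had 429.5 per kilobase, Cyp26a1 averaged 9.85 ± 4.39 normalized read counts, Cyp26b1 0.98 ± 0.995 and Crabp2 0.88 ± 1.52, and Crabp1 had no read.

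Cell cycle genes were expressed throughout: 30 of 30 S phase genes and 30 of 30 genes of G2 and M phase had a mean of at least 100, with medians of 447 and 281 normalized read counts per kilobase. The replication helicase genes Mcm5 and Mcm3 led the first list at 2415 and 1911 per kilobase, with Pcna, the replication clamp, at 1713 and Mcm6 at 1670.2. Cdc20, an activator of the anaphase-promoting complex, led the second at 1901, followed by the mitotic kinase gene Plk1 at 1095, Ccnb2 at 958 and the centromeric histone gene Cenpa at 723. Cdk1 was among the steadiest genes of all, with 1792, 1789.6 and 1811 normalized read counts in controls 1, 2 and 3. Top2a, which encodes a topoisomerase of dividing cells, had 1262, 3607 and 2121 and was highest in control 2 and lowest in control 1. The G2 and M list lay -0.35, 0.18 and 0.10 from its mean on the log2 scale in controls 1, 2 and 3, but -0.10, 0.08 and 0.04 once the trends with length and GC content were removed.

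Of the genes that oppose the cycle, Cdkn1a (p21), a p53 target, had 1385, 1462 and 1152 normalized read counts in controls 1, 2 and 3. Cdkn2c, Cdkn1b and Cdkn2d had 323, 171 and 144 per kilobase, and Cdkn2b averaged 10.9 ± 9.64 normalized read counts. The p53 gene Trp53 had 652 normalized read counts per kilobase. Of the factors that drive the cycle, Myc had 1232 and E2f1 412 per kilobase.

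Markers of other blood cells differed by lineage, and monocyte and macrophage genes were well expressed. That list had 24 of 31 genes at a mean of at least 100, a median of 213 per kilobase and a summed level of 113174 to 170038 normalized read counts, of which Ly6c2 made the most. Beyond Ly6c2, Apoe had 2666, Ctss 2592 and Gpnmb 2545 normalized read counts per kilobase, and F13a1, a coagulation factor of monocytes, had 14560.3, 7636 and 20372 normalized read counts in controls 1, 2 and 3. Gpnmb, a glycoprotein of macrophages, had 17462, 4135 and 13613. Markers of resident macrophages were lower: C1qa had 440.0, 168 and 327 normalized read counts, Mertk 295, 76.6 and 378 and Siglec1 353, 109 and 357, while Cd5l and Timd4 averaged 2.55 ± 1.51 and 1.58 ± 1.5 and Marco had no read. In bulk RNA, fewer cells of a type and less RNA per cell cannot be told apart.

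In the eosinophil, basophil and mast cell list, Prg2, Prss34 and Mcpt8 had 1006, 996 and 951 normalized read counts per kilobase. Prg2, the eosinophil major basic protein, had 546, 1421 and 562 normalized read counts and Epx (eosinophil peroxidase) 154, 361 and 128, and both were over 2-fold higher in control 2 than in both others. The tryptase gene Tpsb2 averaged 0.317 ± 0.549 normalized read counts, and Ear6 had no read. The highest gene of the stromal list was Fn1, a fibronectin that macrophages also make, with 34000.0, 18000.4 and 39886 normalized read counts in controls 1, 2 and 3. Of the 18 stromal and endothelial genes 7 (38.9%) had a mean of at least 100, near the 38.3% of all genes, and the list median was 9.12 per kilobase. Col1a1 averaged 183 ± 22.7, Cdh5 59.7 ± 16.5, Dcn 4.3 ± 2.12 and Lum 0.317 ± 0.549.

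T and NK cell genes had 5 of 21 (23.8%) at a mean of at least 100, against 38.3% of all genes. Their summed level was 737 to 1597 normalized read counts. Gzmb had 237, 74.6 and 309, Gzma 147, 57.7 and 177 and Prf1 194, 27.8 and 172 normalized read counts in controls 1, 2 and 3, while the T cell receptor component Cd3e had 20.9, 11.9 and 29.9. The B lineage list had 2 of 12, led by Igll1, the surrogate light chain of B progenitors, with 1801, 946 and 1524 normalized read counts, while Pax5 averaged 2.57 ± 3.07 and Rag1 had no read. Only Tfrc, the transferrin receptor of all dividing cells, passed 100 of 18 erythroid genes, Alas2 averaged 23.8 ± 15.5, and the 6 globin genes of the list had no read. Because their copies are nearly identical and only uniquely mapped reads were counted, the globin zeros are uncertain. The megakaryocyte list had 4 of 12 (33.3%), near the 38.3% of all genes, with Gp1bb at 142, 175 and 121 normalized read counts. The list for dendritic cells and MHC class II had 6 of 14 (42.9%), also near that share. Cd74 led it per kilobase at 991, while Clec9a and Xcr1 averaged 0.317 ± 0.549 and 1.84 ± 0.824. Xist was present in every control, at 1839.6, 3220.3 and 2392 normalized read counts, and the 4 Y-linked genes of the list had no read.

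The genes with the largest spread between the controls were described next. Over the 9326 genes with a mean of at least 100, the median SD of the log2 values was 0.28, against 0.054 that Poisson counting alone would give at the median gene, and 10% of genes exceeded 0.55. In 1160 genes (12.4%) the highest control was over 2-fold above the lowest. Without control 2 this count was 26, and it was 611 once trends with length and GC content were taken out. Control 2 was over 2-fold above both others in 203 genes (2.18%) and over 2-fold below both in 138 (1.48%). Control 1 was above both in 4 genes (0.0429%) and below both in 8 (0.0858%), and control 3 was above both in 4 (0.0429%) and below both in 3 (0.0322%). Removal of the trends left 185 and 121 genes for control 2.

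Granule genes were among those that set control 2 apart. Of the 18 specific granule genes it was over 2-fold above both others in 9, and of 21 late neutrophil genes in 11, where the share over all genes was 2.18%. The 9 include Mmp8 and Itgb2l, which passed the minimum mean only through control 2. Of 24 monocyte and macrophage genes control 2 was over 2-fold below both others in 5, and of 12 azurophil genes in 1, Mpo, where the share over all genes was 1.48%. It was also over 2-fold below both others in 1 specific granule gene and 2 late neutrophil genes. No azurophil or monocyte and macrophage gene was over 2-fold above both others there. The specific granule list lay -0.51, 0.82 and -0.41 from its mean on the log2 scale in controls 1, 2 and 3, the late neutrophil list -0.47, 0.73 and -0.41, the azurophil list 0.40, -0.25 and -0.04, and the monocyte and macrophage list 0.12, -0.46 and 0.17. The specific granule list took 3.94%, 6.56% and 4.99% of the reads of controls 1, 2 and 3, and the azurophil list 3.37%, 1.37% and 2.54%. Chil3 alone made up 2.56%, 3.58% and 3.48% of reads within the specific granule share, and thus most of it. The median over all tested genes lay 0.03, 0.01 and -0.02 from the mean. Controls 1 and 3 were thus alike in the lists of later stages. Of the 12 azurophil genes, 8 were highest in control 1, 3 in control 2 and 1 in control 3. The shares of all tested genes were 42.4%, 40.4% and 17.2%. The azurophil list median was highest in control 1, with control 3 between. With the trends with length and GC content removed, the azurophil list kept this order but lay 0.20, -0.21 and -0.05 from its mean.

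Control 2 minus the mean of controls 1 and 3 had a list median of 1.22 on the log2 scale for specific granule genes, 1.09 for late neutrophil genes, -0.37 for azurophil genes and -0.68 for monocyte and macrophage genes, beside 0.01 for all tested genes. Once both trends had been removed, these medians were 1.37, 1.14, -0.31 and -0.62. Without control 3 the azurophil median was -0.67. With a minimum mean of 500 the specific granule median was 0.99 and the late neutrophil median stayed at 1.09. The eosinophil, basophil and mast cell genes with a mean of at least 100, 6 of 18, had a median of 1.13. All 6 were highest in control 2, against 40.4% of all tested genes, but to unlike degrees. Hdc lay 0.22 and Mcpt8 0.52 above the mean of controls 1 and 3, against 1.36 for Prg2 and Epx. Control 2 was over 2-fold above both others in 3 of the 6, where the share over all genes was 2.18%. The summed level of the whole list was 5885 normalized read counts in control 2, against 2959 to 3148 in the others. The T and NK genes with a mean of at least 100 had a median of -1.48, but these 5 of 21 members include genes that reach 100 only through controls 1 and 3, and the median was -0.88 with a minimum mean of 20 and -0.49 with none. The list had a summed level of 737 normalized read counts in control 2, against 1384 to 1597, and Cd3e at 11.9 to 29.9 normalized read counts over the 3 libraries. The part of other cell types in the spread was not tested. Members of a list share their library, so these medians describe 1 library against 2.

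**Figure D4:**
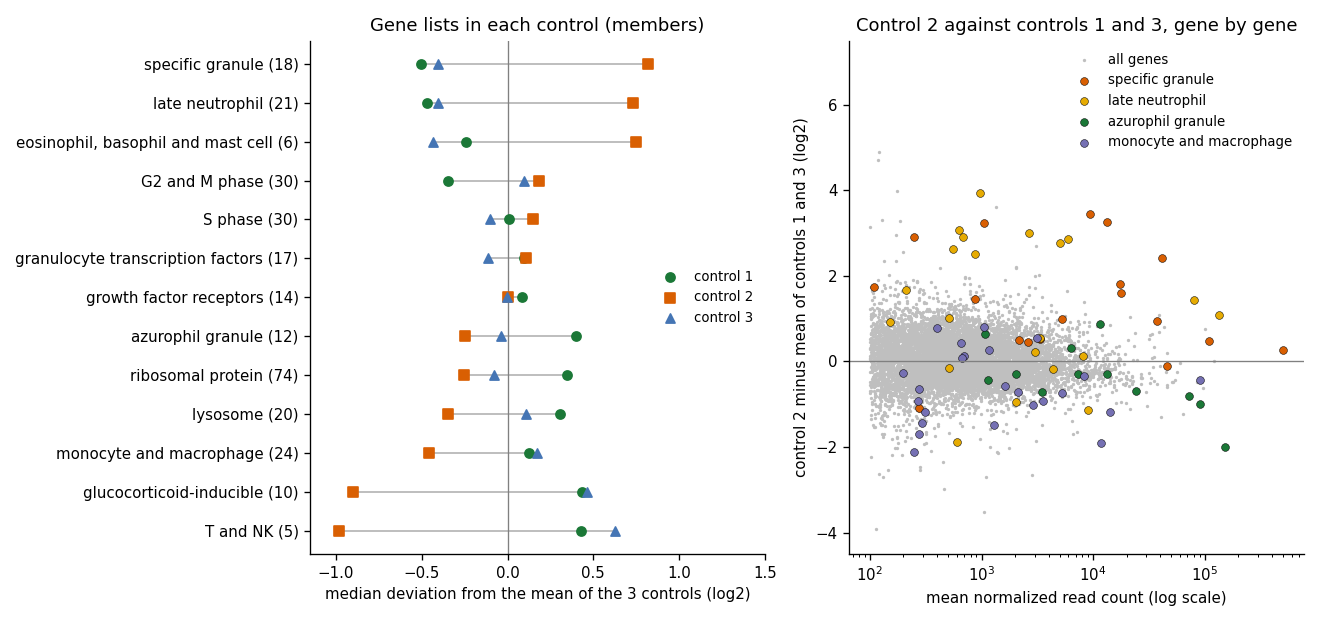
Left, the median deviation of 13 gene lists in each control from the mean of the 3 controls, in log2 units, with the number of members with a mean of at least 100 in brackets. Right, control 2 minus the mean of controls 1 and 3 (log2) against the mean normalized read count for 9326 genes, with 4 lists coloured. Control 2 lies at 0.82 for specific granule and 0.73 for late neutrophil genes and at -0.90 for the glucocorticoid-inducible and -0.98 for the T and NK genes.

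The 20 genes of largest spread, which were chosen by these values, were highest in control 2 in 17 cases and lowest in it in the other 3. Which genes these were depended on the minimum mean and on control 2: 7 of the 20 were also chosen with a minimum of 20, 10 with 500, 2 with none and 2 without control 2. Some, such as Cacna1e and Ifit1bl2, reached a mean of 100 only through control 2. The log2 SD of the gene at rank 20 was 1.68 and that of the gene at rank 21 was 1.63. Specific granule and late neutrophil genes of the lists held 9 of the 20 places, while 18 and 21 of the 9326 tested genes are in these lists. Among the 9, Itgb2l reached a mean of 100 only through control 2. The stefin A genes, inhibitors of cysteine proteases that lie in a cluster of near copies, were Stfa2 with 103, 2555 and 267 normalized read counts in controls 1, 2 and 3, Stfa2l1 with 121, 1498 and 264, Stfa3 with 589, 6337 and 1074 and BC100530 with 1356, 13768 and 2643. Uniquely mapped reads can be split or lost between such copies, so their levels are uncertain, but all were high in control 2. Ceacam10, a member of the carcinoembryonic antigen family, had 246, 2579 and 301 normalized read counts, and Itgb2l, a beta integrin of neutrophils, had 58, 589.6 and 104. Ltf and Olfm4, given above, had the highest mean normalized read counts of the 20.

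The other genes of the 20 are in neither the specific granule nor the late neutrophil list. Cacna1e, a calcium channel subunit, had the largest spread, with 15.2, 340.0 and 7.92 normalized read counts in controls 1, 2 and 3 and a log2 SD of 2.86, where Poisson counting alone would give 0.13. Ifit1bl2, of the interferon-induced IFIT family, had 10.5, 332 and 14.1. Il17b, a cytokine gene, had 49.4, 461 and 16.7. These 3 were high in control 2 and low in the others. Csn2, the milk protein beta-casein, had 220.5, 3461 and 369 normalized read counts and was present in all 3. Inhba, a subunit of activin, had 22.8, 246 and 32.5, Ipcef1 37.1, 408 and 73, the zinc finger gene Zfp128 20.9, 317 and 48.4 and the stefin-like BC117090 32.3, 460.3 and 67.7, each highest in control 2 by more than 4-fold over control 3. The 3 genes lowest in control 2 were Pik3ip1, an inhibitor of phosphoinositide 3-kinase, with 1408, 130.2 and 1618, the dipeptidase gene Dpep2 with 623, 81.5 and 666, and Gm6093, a predicted gene, with 110.2, 9.94 and 223 normalized read counts.

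**Figure D5:**
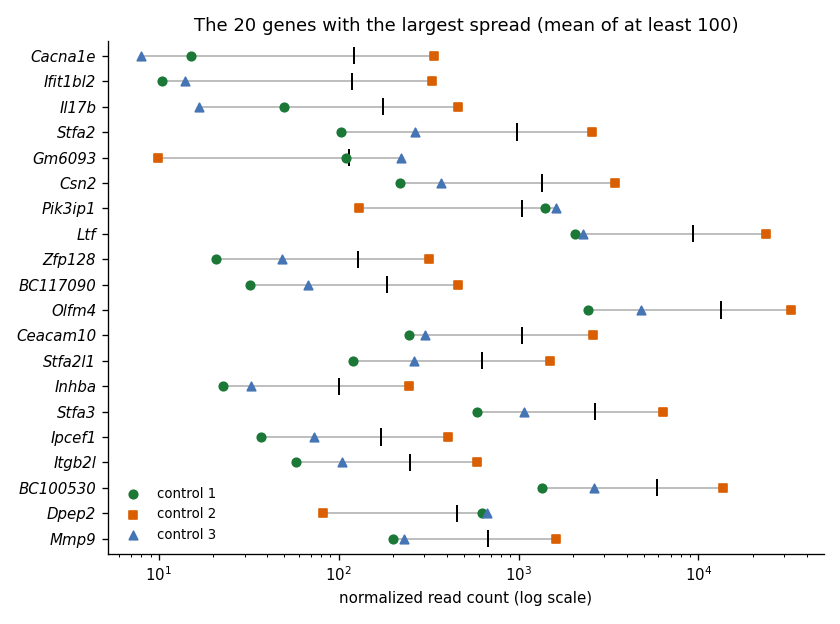
The 20 genes with the largest SD of log2 values among genes with a mean of at least 100 normalized read counts, largest at the top, on a log axis. Markers are the 3 controls, the black tick is the mean and the grey line spans the lowest to the highest. Control 2 is the highest for all but Gm6093, Pik3ip1 and Dpep2.

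The few genes that set controls 1 and 3 apart were of other kinds. The 4 genes over 2-fold higher in control 1 than in both others were Derl3, an endoplasmic reticulum degradation factor, with 1062, 490.2 and 441 normalized read counts in controls 1, 2 and 3, Bhlha15, the secretory cell factor MIST1, with 789, 259 and 389.7, the collagen gene Col4a2 with 224, 64.6 and 106 and Tenm4 with 204, 87.5 and 100.3. Those higher in control 3 were Thbs1, encoding thrombospondin 1, with 2051, 1356 and 7029.6, the inflammasome sensor Nlrp3 with 170.1, 185 and 391, the arrestin-domain gene Arrdc3 with 90.3, 98.4 and 241 and Gm6093. Those lower in control 3 were the transporter gene Slco4a1 with 1331, 4136 and 623, Il17b and the long noncoding RNA D030028A08Rik with 145, 223 and 65.1. The 8 lower in control 1 included Stfa2, Stfa2l1 and Plek, the platelet and leukocyte protein pleckstrin, with 249.9, 639 and 504 normalized read counts. These genes were named after their values were seen.

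At the other end, some genes differed by less than counting error would give. Cdk1 had a log2 SD of 0.0095, against 0.033 from Poisson counting, and the interleukin 17 receptor gene Il17ra had 5854, 5776 and 5840.2 normalized read counts and a log2 SD of 0.01. The usual reference genes differed among themselves. Gapdh had 65074, 40577 and 48829.7 normalized read counts, Actb 89494, 138713 and 75062 and Tmsb4x 27120.3, 60857 and 29938, the last over 2-fold above both others in control 2, while Ppia had a log2 SD of 0.058.

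Lists for 4 further groups were drawn up after the values were seen and are given as a description of control 2. Because of that choice, their counts beside the share over all genes are no test of the lists. Lysosomal genes were lower in it, by a median of -0.52 on the log2 scale over 20 genes, with 3 over 2-fold below both others, against 1.48% of all tested genes. Ctsl, encoding the protease cathepsin L, had 8396, 2653 and 8772 normalized read counts in controls 1, 2 and 3, Ctsd (cathepsin D) had 60177, 20112 and 40122 and Lgmn (legumain) had 1657, 586 and 1616. Glucocorticoid-inducible genes were lower by a median of -1.36 over 10 genes, all 10 lowest in control 2, as were 37.8% of all tested genes, and 6 over 2-fold below both others, against 1.48% of all. Per1, a clock gene that glucocorticoids also induce, had 4376, 626 and 3516 normalized read counts. Tsc22d3, encoding the glucocorticoid-induced leucine zipper, had 2194, 762 and 2032, and Fkbp5, a co-chaperone of the glucocorticoid receptor, had 7971, 3983 and 8033. The values of controls 1 and 3 lay close together in each of these genes, and that of control 2 lay below both. Circadian clock genes had a median of -0.43 over 10 genes, which moved between -0.19 (without control 1) and -0.67 (minimum mean of 500), with Tef at 796, 298 and 899.9 and Cry1 at 1189, 1048 and 1346 normalized read counts. Endoplasmic reticulum genes of the secretory path had a median of -0.18 over 20 genes (-0.06 without control 1) and were highest in control 1 in 14 of them, as were 42.4% of all tested genes. With the trends with length and GC content removed, the medians of these 4 lists were -0.39, -1.14, -0.33 and -0.13, in the order given. Neither time of collection nor hormone level is stated in the labels or methods, and their part in these values was not tested.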

How the data were processed

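PolyA RNA of sorted GFP+ APL cells was sequenced after TruSeq preparation. Per the study's methods the authors used FastQC for quality and Cutadapt for trimming, kept reads that STAR placed uniquely on mm9, counted genes with HTSeq-count and used DESeq2. The scaling is read from the deposited table, which holds the controls beside the ATO libraries, and is not described in the methods. Tool versions and the strand setting were not given in the sources used here. The deposited values are a normalized signal, read counts divided by a size factor. Dividing by the smallest step returned whole reads for 100% of values in each control (tolerance 0.01). The 3 drug columns and the authors' fold change and p-value columns were not used. Of 24391 entries, 27 whose symbols had become dates were left out, with 0.131%, 0.173% and 0.147% of reads.

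Spread is the SD of log2(value + 0.5) over genes with a mean of at least 100. Levels per kilobase use the exon union of GENCODE vM1 on mm9, for genes with at least 200 bases, where 20799 symbols matched directly, 1355 by synonym and 2210 not. Length and GC trends were removed as an alternative, as were other minimums, scalings and left-out libraries. Python 3.11.15, numpy 2.4.6, pandas 2.3.3, scipy 1.17.1, R 4.3.3 and edgeR 4.0.16 were used, edgeR only for alternative scaling and dispersion. The scripts were tested on simulated data. Genes named were the top 20 by mean, the top 10 per kilobase, the top 20 by spread, the highest members of each list, the regulators, sorting antigens and receptors, and members with no read. Some list members are counted but not reported here by name. Members and lists were chosen with earlier results of these data known.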

Additional observations from a re-analysis of the deposited data

How the results depend on the processing

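The count of genes whose highest control was over 2-fold above the lowest, 1160 as reported, was 1821 with a minimum mean of 20, 503 with a minimum of 500, 5995 with no minimum and 611 once trends with length and GC content were taken out. Leaving out 1 control in turn gave 26 to 1052, the lowest without control 2. Control 2 was above both others in 203 genes as reported and in 320, 98 and 1035 under the same 3 minimums, and below both in 138 as reported and in 306, 45 and 1128. With 1 other control left out these counts were 269 to 713 and 177 to 339. The median difference of control 2 for G2 and M phase genes, 0.28 on the log2 scale, turned to -0.0087 with a minimum mean of 500, and was 0.12 with both trends taken out, 0.036 without control 1 and 0.56 without control 3. The T and NK difference, -1.48 as reported, was -0.88 with a minimum of 20 and -0.49 with none, and had no value at 500, and no list difference can be had without control 2. No paired analysis was possible because the results come from no test and from 1 group. With 3 libraries, of which 1 stood apart, the spread of a gene is poorly known. A gene with no read in a library may still have a level of up to 3 reads there, and values at or near that level are uncertain.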

Other observations

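Other gene groups of the untreated cells fall outside the account above and are given as values with n = 3. All 7 subunit genes of the NADPH oxidase, the enzyme complex of the phagocyte respiratory burst, had a mean of at least 100 normalized read counts, with a median of 2108 per kilobase. Cyba, the smaller membrane subunit, was the highest at 18917 per kilobase, and Cybb, its catalytic partner, had 2801, 10542 and 4031 normalized read counts in controls 1, 2 and 3. Cybb was over 2-fold higher in control 2 than in both others, which no other member was. In the BCL2 family, which sets the threshold for apoptosis, 11 of 16 genes had a mean of at least 100. Bax, a pore former, had 2739 normalized read counts per kilobase, the survival factor Mcl1 1569 and Bak1 1281, while Bcl2 itself had 57, 81.5 and 112 normalized read counts in the 3 controls.

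Among heat shock genes Hsp90ab1, a chaperone, had 48527, 40124 and 47135 normalized read counts in controls 1, 2 and 3, and the metallothionein gene Mt1 had 12705, 7193 and 12025. Other members went the other way in control 2, since Hsph1, a co-chaperone, had 353, 1333 and 407 and Hspa8, a constitutive chaperone, 11983, 20237 and 10496, and 7 of 13 members were highest there, against 40.4% of all tested genes. Of the immediate-early genes, which respond within minutes to stimuli and to tissue handling, Ier2 was highest at 1767 per kilobase, Fos had 237, 170.0 and 284 normalized read counts and Dusp1, a phosphatase that glucocorticoids also induce, had 328, 68.6 and 445. Both were highest in control 3 and lowest in control 2, Dusp1 by the larger margin. Most of the list did not share this order. Of 17 members with a mean of at least 100, 4 were lowest in control 2 and 11 in control 3, against 37.8% and 24.4% of all tested genes. Only 3 of the 17 were highest in control 3. The interferon-induced list had 13 of 26 genes at a mean of at least 100, led by Bst2 at 1988 per kilobase, while Mx1 averaged 16.7 ± 6.69 and Rsad2 15 ± 2.32 normalized read counts.

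The ribosomal protein genes took 8.43%, 5.94% and 6.96% of the reads of controls 1, 2 and 3. Of 74 such genes with a mean of at least 100, 69 were highest in control 1 and 66 lowest in control 2, against 42.4% and 37.8% of all tested genes. These are short transcripts, and with the trends with length and GC content removed the list medians were 0.20, -0.11 and -0.09 on the log2 scale, against 0.35, -0.25 and -0.08 before.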
